A study of Macaca mulatta with 39 samples.

Results

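The comparison described here sets an embryonic stem cell (ESC) line of the rhesus macaque against fibroblasts that descend from that same line. C3106 is a male ESC line, represented by the arrays C3106b, C3106c and C3106d. Its differentiated progeny are the fibroblast cultures TA31, TB31, TC31, TD31 and TE31, each explanted from a different teratoma that arose where C3106 cells had been injected into an immune compromised mouse. The members were chosen by their titles, which gave 17 of the 39 arrays of the series: 3 of the ESCs and 14 of the teratoma fibroblasts. All 6 sources carry the genome of a single embryo, so neither parentage nor sex differs between the sides. The series also holds a female ESC line, its teratoma fibroblasts, and skin fibroblasts of the parent animals, which are not described.

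The labels name no treatment and no genetic change in any of these sources. The ESC side is 1 line, so its 3 arrays are samples of 1 source. Arrays of 1 source are biological triplicates per the labels, which do not say what was repeated, so their spread may be technical. They were averaged per source, and the p-values of the comparison below measure only the spread between the means of these cultures. Passage numbers, shared host mice and the removal of mouse cells are not stated.

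A pluripotent cell can form every tissue of the body. Its state is held by a small circuit of transcription factors around POU5F1, SOX2 and NANOG, and its colonies are epithelial, joined by adhesion and tight-junction proteins. Fibroblasts are mesenchymal cells that lack those junctions, lay down collagens, proteoglycans and fibrillins, and remodel this matrix with secreted proteases.

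Signals are log2 values of probe sets, so 1 unit is a 2-fold difference in signal, and differences are given as ESC minus teratoma throughout. As a gauge of background, 95% of the 674 probe sets for viral sequences lay under 6.64 in the ESCs and under 6.71 in the teratoma fibroblasts. The array labelled TB31c was left out: its lowest correlation over genes with its own culture was 0.9512, it reached 0.9986 with an array of skin culture M106p1, and its MYH3 signal was 7.03 against 12.25 and 12.12 in TB31a and TB31b. The 3 TD31 arrays, kept here, correlated with each other at 0.9934 or more and with another M106p1 array, M106p1f, at 0.9961 to 0.9980. Whether array labels were exchanged was not tested, and without TD31 822 genes were called higher and 951 lower in the comparison below. The lowest correlation between ESC arrays was 0.9747, and each ESC array had a correlation of 0.9760 to 0.9877 with its closest array of the female line. C3106d stood at least 1 unit above both other ESC arrays for 212 genes, against 17 for C3106b and 40 for C3106c. Of those 212 genes, 52 were called lower in ESCs in the comparison below and 25 higher. The gap between 3′ and 5′ actin probe sets, which widens when RNA is shortened, was 0.60, 0.26 and 0.74 in the ESC arrays. It was 0.78, 0.47 and 0.02 in the TC31 arrays and 0.03 to 0.38 in the other teratoma arrays, so it was mostly wider in ESCs. Its part in the results was not tested.

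The labels were checked on 3 marker genes. POU5F1, the transcription factor at the centre of the pluripotency circuit (on chromosome 4, by MmuSTS.2285.1.S1_at), showed signals of 12.67, 12.94 and 13.17 in C3106b, C3106c and C3106d. Its culture means were 4.71 in TA31, 4.64 in TB31, 4.69 in TC31, 4.79 in TD31 and 4.83 in TE31. Every ESC array was high and every culture was at background. EPCAM, an adhesion molecule of epithelia on chromosome 13, lay at 10.93, 11.22 and 10.75 in the ESC arrays and between 2.72 and 2.81 in the 5 cultures. LUM, the gene of the matrix proteoglycan lumican on chromosome 11, showed the opposite pattern, with 3.33, 3.54 and 2.83 in ESCs and culture means of 12.85, 12.86, 12.68, 12.51 and 12.26 from TA31 to TE31. The ESC arrays and the cultures did not overlap for any of the 3 markers, and each lay on the side its label gives. This check tells ESCs from fibroblasts only. The left-out array TB31c read 4.78, 2.94 and 12.42 for POU5F1, EPCAM and LUM, so the markers cannot tell teratoma fibroblasts from skin fibroblasts.

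The comparison asks which genes separate a pluripotent line from differentiated cells of the same genome. Genes were called when limma's Benjamini-Hochberg adjusted p was under 0.05 and the difference was at least 1 unit. Of 14132 genes tested, 1782 (12.6%) were called: 827 (5.85%) higher in C3106 ESCs and 955 (6.76%) lower. Falls went further than rises. The median difference was 1.44 among genes called higher and −1.83 among genes called lower, against 0.01 over all genes. At 2 units or more there were 416 falls and 210 rises, and at 4 units or more 112 falls and 29 rises. Probe sets were chosen by mean signal over all 39 arrays, most of them of fibroblasts. The part of that choice in this asymmetry was not tested. Among genes called higher, 302 had a teratoma mean under the viral level, and among genes called lower, 303 had an ESC mean under it, so their differences are limited by background. With TB31c kept, 891 genes were called higher and 979 lower.

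**Figure D1:**
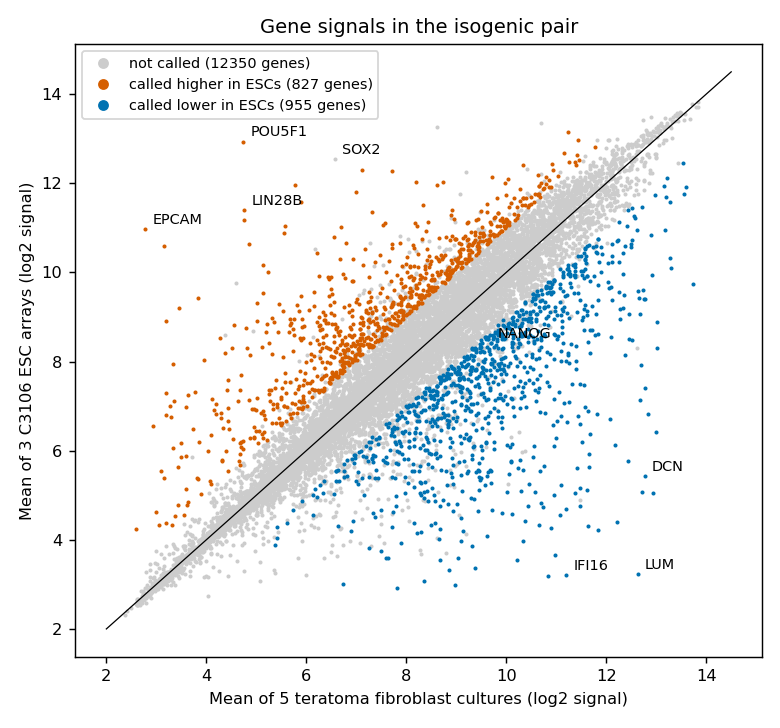
Each point is a gene, with the mean log2 signal of the 5 teratoma cultures on the horizontal axis and the mean of the 3 C3106 ESC arrays on the vertical axis. The 827 genes called higher in ESCs lie above the line of equal signal and the 955 called lower lie below it, with POU5F1 and EPCAM at the upper left and LUM at the lower right.

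The test takes its error from the spread between the 5 cultures, because the ESC line is a single source and is assumed to vary like them. The p-values hold no spread between ESC lines. The median SD over all genes was 0.18 between the 3 ESC arrays and 0.14 between the 5 culture means. The former is over single arrays and the latter over averages of arrays, so they are not directly comparable. All 3 ESC arrays lay outside the range of the culture means for 826 of the genes called higher and 941 of those called lower, where 41.5% of all genes do so. A call already needs a difference that is large against the spread of the same culture means, so these counts are no separate support. The brightest probe set stands for each gene, and the next brightest did not always move with it. Among 377 genes called higher that have another probe set, it differed by at least 1 unit the same way for 206, by less than 1 unit for 169 and by at least 1 unit the opposite way for 2. For 574 genes called lower these counts were 318, 250 and 6. Where the next brightest probe set of a called gene named below differed by less than 1 unit or the opposite way, its value is given as that of another probe set.

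The 12 largest rises were taken among called genes whose 3 ESC arrays all lay outside the range of the culture means. They held pluripotency regulators beside epithelial and secretory genes. POU5F1 rose from 4.73 ± 0.08 (SD, n = 5 cultures) in teratoma fibroblasts to 12.93 ± 0.25 (SD, 3 arrays) in ESCs, a difference of 8.20 (SE 0.11, limma adjusted p = 3.12e-06). EPCAM rose by 8.20 (SE 0.09, limma adjusted p = 1.89e-06). CTSV, a lysosomal cysteine protease, stood at 10.58, 10.34 and 10.85 in ESCs against culture means of 2.98 to 3.54, a rise of 7.45 (SE 0.22). LIN28B, an RNA-binding protein that blocks the maturation of let-7 microRNAs, read 11.42, 11.46 and 11.31 in ESCs and rose by 6.64 (SE 0.17), with 0.98 on another probe set. DPPA4, a chromatin protein of early embryos, rose by 6.20.

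The other rises were spread over several roles. NELL2, a secreted glycoprotein of neural tissue, rose by 5.77 and by 6.35 on another probe set. CHGB, a protein of secretory granules, rose by 5.75 from a teratoma level of 3.45. KCTD8, an auxiliary subunit of GABA-B receptors, rose by 5.72 and CLDN6, a claudin of embryonic epithelia, by 5.67. A locus without a gene name, LOC699676 on chromosome 1, rose by 5.44. The highest limma adjusted p of these 5 genes was 4.02e-05. NFE2L3 and BEND4 rose over uneven cultures. NFE2L3, a transcription factor of the cap'n'collar family, read 11.44, 10.90 and 11.19 in ESCs, was highest among the cultures in TA31 and lay between 3.65 and 5.18 in the other 4 (rise of 6.42, SE 1.26, limma adjusted p = 0.0158). BEND4, named for its BEN domain, was 5.47 in TA31 and 3.35 to 3.63 in the other cultures (rise of 5.59, SE 0.83, limma adjusted p = 0.00662). All of these BEND4 culture means were under the viral level.

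The 12 largest falls among called genes, taken under the same rule, were mostly genes of the extracellular matrix and of secreted signals. LUM fell by 9.40 (SE 0.24, limma adjusted p = 2.48e-05), from 12.63 ± 0.25 (SD, n = 5 cultures) to 3.23 ± 0.37 (SD, 3 arrays). IFI16, a nuclear sensor of DNA, read 3.09, 2.94 and 3.60 in ESCs and 10.99 to 11.39 in the cultures (difference −7.99). EFEMP1, a fibulin of elastic tissue, differed by −7.89, SRGN, a proteoglycan of secretory granules, by −7.82, CCDC80, a matrix protein, by −7.64 and DCN, the lumican relative decorin, by −7.35. The highest limma adjusted p of these 6 genes was 0.000127.

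FAP, a serine protease on the fibroblast surface, differed by −7.65, with culture means from 9.60 in TD31 to 11.66 in TE31. DKK1, a secreted WNT inhibitor, differed by −7.62 and TNFRSF11B, the decoy receptor osteoprotegerin, by −7.33. ASPN, another small leucine-rich proteoglycan, differed by −7.31 and ran from 9.36 in TC31 to 12.14 in TE31, the widest range over cultures among these 12 genes. LGR5, an R-spondin receptor known as a stem cell marker of gut and hair follicle, was low in the pluripotent cells. It read 4.26, 5.93 and 4.07 in ESCs against 11.07 to 11.89 in the cultures (difference −6.73, and −2.09 on another probe set). TGFBI, an adhesion protein of the matrix, differed by −6.67. The highest limma adjusted p of these 6 genes was 0.00499, for ASPN.

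Of 16 measured core pluripotency genes, 9 rose and 1 fell, and the median difference was 2.14. All list counts below stand against 5.85% of all genes called higher and 6.76% called lower. Counts at an unadjusted p under 0.05, in every list below, keep the limit of 1 unit. The mean signal of these genes was 9.26 to 9.44 in the ESC arrays and 6.31 to 6.70 in the cultures. After POU5F1, LIN28B and DPPA4, the de novo DNA methyltransferase DNMT3B rose by 5.18, PRDM14, a repressor of germline and pluripotent cells, by 4.77, and the zinc-finger factor SALL4 by 3.40. ETV4, an ETS factor downstream of FGF signals, rose by 2.20, ZSCAN10, a zinc-finger partner of the core factors, by 2.07, and ZFP42, the marker also known as REX1, by 1.23. ZFP42 differed by 0.78 without C3106c and was then not called.

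SOX2, the partner of POU5F1, read 12.58, 12.54 and 12.49 in ESCs. Its culture means were 10.33 in TA31, 7.90 in TC31, 5.02 in TE31, 4.81 in TB31 and 4.78 in TD31. All ESC arrays lay above every culture, but the cultures spanned 5.55 units and the difference of 5.97 did not pass (SE 2.24, limma adjusted p = 0.111). Without TA31 it was 6.91 and passed, and on another probe set it was 3.20 and passed. PAX6, a factor of neural and eye progenitors, was likewise highest in TA31 (10.29) and TC31 (8.20), and lay under the viral level in the other 3 cultures and in ESCs (4.90). The probe set assigned to NANOG, on chromosome 11, went against the list. Whether it reads NANOG itself or a related copy was not tested. It read 8.22, 8.60 and 8.42 in ESCs and 9.50 to 9.86 in the cultures, a difference of −1.28 (SE 0.15, limma adjusted p = 0.00269). No ESC array reached the level of any culture, and no other probe set was assigned to NANOG alone.

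Of 16 genes linked to naive pluripotency or the germline, limma called 0 higher, also at an unadjusted p under 0.05, and 3 lower, all KLF factors. KLF4 read 7.89, 7.80 and 6.66 in ESCs against 9.57 in TE31, 10.29 in TA31, 11.09 in TB31, 11.31 in TC31 and 12.04 in TD31 (difference −3.41, SE 0.86, limma adjusted p = 0.0352). KLF5 read 7.56, 6.75 and 9.21 in ESCs and 9.34 to 10.56 in the cultures. KLF2 differed by −1.41, and by −0.46 on another probe set. KLF4 was not called without C3106d or without any of TA31, TB31 and TC31, KLF5 not without C3106c (−1.55), and KLF2 not without any of TC31, TD31 and TE31, so that 1 gene of the list was called lower without TC31. Without C3106b 1 gene was called higher. Of 13 primed and early neural genes 4 rose: NELL2, SOX3 (3.14, and 0.01 on another probe set) and the zinc-finger factors SALL2 (2.89) and ZIC5 (1.22). The WNT modulator SFRP2 (−2.59) fell, and without C3106d 2 genes of the list did.

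Of 25 epithelial adhesion genes limma called 9 higher and 0 lower, also at an unadjusted p under 0.05, with a median difference of 0.89. After EPCAM and CLDN6 came CLDN10 at 3.53, the epithelial splicing regulator ESRP2 at 3.21, KRT19, a keratin of simple epithelia, at 3.00, and CXADR, a junction protein that also serves as a virus receptor, at 2.79 (0.69 on another probe set). The P-cadherin gene CDH3 rose by 1.86, CLDN7 by 1.25 and RAB25, a regulator of epithelial vesicle traffic, by 1.00. RAB25 sat at the limit and was not called without any of TA31, TB31, TC31, TD31 and C3106c, and CLDN7 was not called without C3106c (0.96). CDH1, the E-cadherin gene, read 5.61 in ESCs and 5.69 in teratoma fibroblasts, both under the viral level.

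Of 26 mesenchymal transcription factors limma called 12 lower and 0 higher, also at an unadjusted p under 0.05, with a median of −1.62. PRRX1, which marks limb and connective tissue mesenchyme, had a mean of 4.27 in ESCs and read 10.45 to 11.28 in the cultures (difference −6.62). The nuclear receptors NR2F1 and NR2F2 differed by −6.32 and −5.99, RUNX2, a regulator of bone formation, by −4.60 (−0.11 on another probe set), and ZEB2, a repressor of epithelial genes, by −4.34. The highest limma adjusted p of these 5 genes was 0.0151.

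The matrix lists fell furthest. Of 29 proteoglycans and matrix glycoproteins 21 fell and 0 rose in limma (0 at an unadjusted p under 0.05), with a median of −3.02, among them FBN1, the gene of fibrillin (−5.35), and FN1, that of fibronectin (−3.20). Of 30 collagens and collagen-processing enzymes 16 fell and 0 rose in limma (0 at an unadjusted p under 0.05), with a median of −2.61. LOX, which crosslinks collagen, differed by −5.53, COL15A1 by −4.94, COL5A2 by −4.72 and COL1A1, a chain of type I collagen, by −4.11. Another probe set gave 0.31 for COL15A1, 0.48 for COL5A2 and −0.22 for COL1A1, but −5.40 for LOX. COL1A2, the other type I chain, was well above background on both sides, at 9.74 ± 0.64 (SD, 3 arrays) in ESCs and 13.74 ± 0.07 (SD, n = 5 cultures) in the fibroblasts.

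Of 28 matrix proteases and inhibitors 11 fell and 1, CTSV, rose, with a median of −1.77. The metalloproteases ADAM12, ADAMTS2, which trims procollagen, and ADAMTS1 differed by −6.33, −5.86 and −4.76. Of 22 integrins and laminins 5 fell and 1 rose (median −0.71). LAMA1, a laminin chain of embryonic basement membranes, rose by 3.81 (0.28 on another probe set). The integrins ITGB8 and ITGA11 differed by −4.12 and −3.72, and the laminin chains LAMA2 and LAMA4 by −3.39 and −3.25, with 0.05 for ITGB8 and −0.61 for LAMA4 on another probe set. LAMA2 was uneven in ESCs, at 7.61, 5.21 and 6.73, as was ITGB8, at 3.23, 3.64 and 5.65. ITGB8 was not called without C3106b or without any of TB31, TC31 and TD31, and LAMA2 not without C3106c, TB31 or TC31. The list then had 2 members called lower without TB31 and 3 without TC31 or C3106c.

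Of 26 genes of the actin cytoskeleton, caveolae and mesenchymal cell surface 17 fell and 0 rose in limma (0 at an unadjusted p under 0.05), with a median of −1.79. The calcium-binding proteins S100A4 and S100A6 differed by −6.05 and −4.78. NT5E, the mesenchymal surface enzyme CD73, had a mean of 3.37 in ESCs and 9.37 in the cultures (−0.62 on another probe set). CAVIN2, a coat protein of caveolae, differed by −4.44 (−0.89 on another) and ANXA1, a membrane-binding annexin, by −4.04. ANXA1 was uneven in ESCs, at 9.17, 6.95 and 9.34, while the cultures lay between 12.40 and 12.67. VIM, the intermediate filament vimentin, stayed high in ESCs at 11.92 and differed by −1.66 (−0.68 on another probe set). Of 22 genes of gap junctions, cadherins and surface glycoproteins 8 fell and 1 rose (median −0.47). The neural adhesion gene L1CAM rose by 2.31 (0.24 on another probe set). The cadherins PCDH10 (−4.21, and −0.57 on another probe set), CDH13 (−3.95) and CDH11 (−3.55) fell, as did the surface proteins CD99 (−3.14) and CD47 (−2.89). PCDH10 was not called without TA31, and without TA31 3 genes of the list rose.

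**Figure D2:**
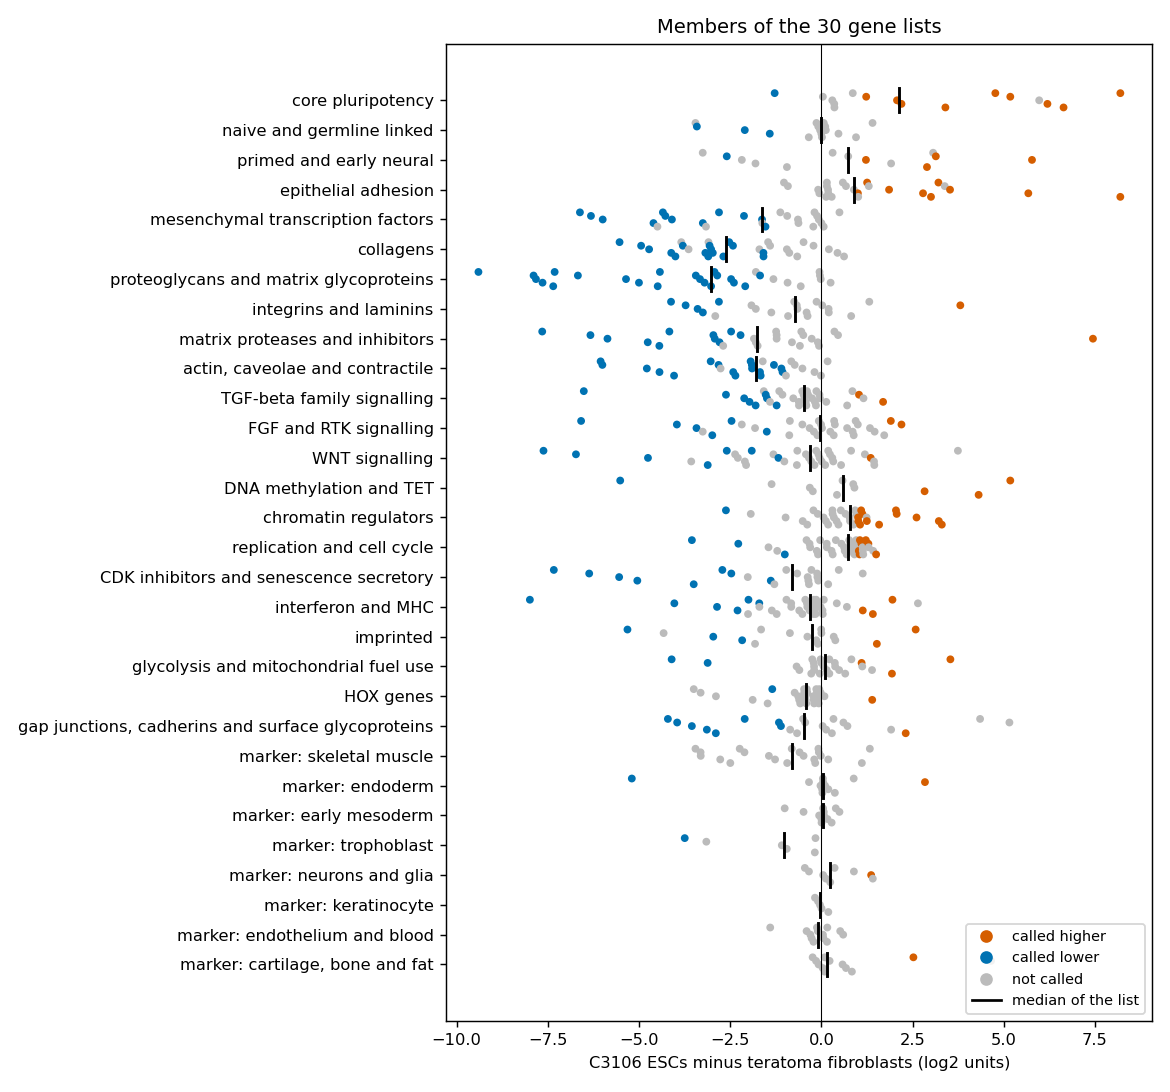
Each point is a gene of 1 of the 30 lists, placed by its difference between C3106 ESCs and teratoma fibroblasts in log2 units, in orange when called higher, blue when called lower and grey otherwise. Black bars are list medians, from 2.14 for core pluripotency to −3.02 for proteoglycans and matrix glycoproteins.

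Of 34 genes of TGF-beta family signalling 2 rose and 8 fell (median −0.48), and the share that rose, 5.88%, was that of all genes (5.85%). Among ligands, INHBA, the activin A subunit, ran from 9.64 in TD31 to 12.15 in TA31 over the cultures and read 4.84, 4.52 and 4.69 in ESCs (difference −6.51). TGFB3 differed by −2.61 and TGFB1 by −1.80, with −0.18 and −0.02 on another probe set. The activin receptor ACVR2B rose by 1.69, and the activin antagonist FST rose by 1.03 but was not called without C3106c (0.88), which left 1 rise. The target gene ID3 differed by −2.12 (0.11 on another probe set), and BMP1, a procollagen protease, by −1.97 (−0.61 on another).

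Of 32 FGF and receptor tyrosine kinase genes 2 rose and 6 fell (median −0.04), and the share that rose, 6.25%, was near that of all genes (5.85%). The rises were ETV4 and the receptor ERBB2 (1.90, and 0.20 on another probe set), and without TC31 there were 4. The secreted IGF-binding proteins IGFBP7, IGFBP3 and IGFBP4 differed by −6.59, −3.96 and −2.46, the receptor MET by −3.42 and the ligand PDGFC by −2.99. Another probe set gave −0.64 for IGFBP7 and −0.84 for MET. MET was uneven in ESCs, at 5.85, 5.00 and 7.67, and IGFBP4 was not called without TB31 or TD31. Of 36 WNT genes 7 fell and 1 rose (median −0.31). After DKK1 and LGR5, the largest falls were those of the secreted modulator DKK3 (−4.75) and the receptor FZD1 (−3.12, and −0.31 on another probe set). TCF7L1, a repressor of WNT targets, rose by 1.35, and without TA31 2 genes rose.

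Of 11 genes that write, read or erase DNA methylation 3 rose and 1 fell (median 0.58). The de novo enzymes DNMT3B and DNMT3A rose by 5.18 and 2.83, and TET1, which oxidises methylcytosine, by 4.31. TET1 read 10.97, 11.36 and 10.69 in ESCs and ranged from 5.80 in TE31 to 7.98 in TB31. MBD2, a reader of methylated DNA, went the other way. It read 5.42, 4.39 and 5.40 in ESCs against 10.34 to 10.83 in the cultures (difference −5.51, SE 0.18, limma adjusted p = 4.92e-05), with −3.52 on another probe set. Without TE31 2 genes of the list fell. Of 35 chromatin regulators 12 rose and 1 fell (median 0.78). JARID2, a Polycomb partner, rose by 3.30, the remodeller CHD7 by 3.22, the AT-rich DNA binder ARID3B by 2.61 and HMGA1, an architectural protein, by 2.06. SMARCA2, an ATPase of BAF complexes, was the 1 that fell (−2.62).

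Of 40 replication and cell cycle genes 7 rose and 3 fell (median 0.73), and the share that fell, 7.5%, was near that of all genes (6.76%). MCM2, a subunit of the replicative helicase, had means of 11.33 in ESCs and 9.83 in the cultures. The mitotic phosphatase CDC25C rose by 1.29, and the cyclin CCNB2 by 1.22, which was not called without any of TC31, TD31, TE31, C3106b and C3106c. Among G1 regulators CCNE2 (−3.55), CCND3 (−2.28) and CDK6 (−0.38 on another probe set) fell, while CCND1, CCNE1, CDK2 and CDK4 were not called. CDK6, with means of 6.31 in ESCs and 7.31 in the cultures, sat at the limit of 1 unit and was not called without any of TA31, TB31, TC31, TD31 and C3106d. Of 22 CDK inhibitors and secreted genes linked to senescence 8 fell and 0 rose in limma (1 rose at an unadjusted p under 0.05), with a median of −0.81. CDKN2A, the gene of the inhibitors p16 and ARF, differed by −5.54 (0.00 on another probe set), CDKN1A, that of p21, by −3.50 and CDKN2C by −2.47. The cytokine IL6 read 4.06, 4.04 and 3.83 in ESCs and ran from 8.97 in TA31 to 12.16 in TE31 (difference −6.36), and the chemokine CCL2 differed by −5.04.

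Of 37 interferon and MHC genes 3 rose and 6 fell (median −0.32). After IFI16, falls came from GBP1, a GTPase induced by interferon (−4.03, and −0.69 on another probe set), IL6ST, the shared cytokine receptor gp130 (−2.86), IFI35 (−2.30) and TAPBP, which loads peptides on MHC class I (7.81 in ESCs and 9.81 in the cultures, and −0.13 on another). GBP1 was not called without TA31, TB31 or TD31. The rises were those of GBP2 (1.95, and −0.26 on another probe set), MX1 (1.41) and ISG15 (1.13, and 0.86 and not called without C3106c). Of 16 imprinted genes 2 rose and 3 fell (median −0.26). PLAGL1, a zinc-finger growth regulator, DIRAS3, a RAS-like GTPase, and SGCE, a sarcoglycan, differed by −5.31, −2.96 and −2.17. MAGEL2 and SNRPN, neighbours of the Prader-Willi region, rose by 2.58 and 1.52. Without TE31 5 imprinted genes fell.

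Of 26 genes of glycolysis and mitochondrial fuel use 3 rose and 2 fell (median 0.10), and the share that fell, 7.69%, was near that of all genes (6.76%). GLDC, the glycine decarboxylase, rose by 3.54, the glucose transporter SLC2A3 by 1.93 and the citrate synthase CS by 1.10. CPT1A, which admits fatty acids to mitochondria, differed by −4.10 and the glycolytic enzyme GPI by −3.12, with −0.46 and 0.14 on another probe set. GLDC was not called without TC31 or TE31 and SLC2A3 not without any of TA31, TB31, TC31 and TE31, so that 1 gene rose without TC31 or without TE31. Of 29 HOX genes and cofactors 1 rose and 1 fell (median −0.42), 3.45% each way against 5.85% and 6.76% of all genes. PBX3, a cofactor, rose by 1.39 (0.33 on another probe set) and HOXD10 differed by −1.35, while without TD31 3 genes fell. In ESCs 6 of the 29 lay above the viral level, against 8 to 18 in the cultures.

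Markers of other cell types were read as the mean signal of each list. Skeletal muscle markers, where the ESC arrays lay inside the culture range, are taken up next. In 4 of the other lists the ESC arrays overlapped the cultures. The 12 endoderm markers lay at 6.80 to 7.04 in ESCs and 6.80 to 7.17 in cultures. The 12 early mesoderm markers lay at 6.15 to 6.36 and 6.16 to 6.50. For 5 keratinocyte markers the ranges were 6.88 to 6.99 and 6.91 to 7.05. For 13 endothelial and blood markers they were 5.91 to 6.25 and 6.01 to 6.33. In the last 3 of these 4 lists limma called 0 genes, also at an unadjusted p under 0.05. Among endoderm markers the forkhead factor FOXA3 (2.84) rose and the zinc-finger factor GATA6 (−5.20) fell, and without C3106b 2 rose. The 9 neuron and glia markers lay at 6.87 to 6.90 in ESCs and 6.26 to 6.63 in cultures, with a rise of GFAP, the astrocyte filament, by 1.37 (−0.55 on another probe set). The 12 markers of cartilage, bone and fat lay at 7.03 to 7.22 and 6.15 to 6.47, with a rise of FABP4, the fat-cell lipid carrier, by 2.52 (0.21 on another), and 2 rose without TC31, TE31 or C3106c. The median difference of this list was 0.16. FABP4 was uneven in ESCs, at 7.51, 5.66 and 7.69. The list also holds SPP1, taken up below, which differed by 4.65 and was not called. The 6 trophoblast markers lay at 5.84 to 6.02 and 6.92 to 7.88, with a fall of KRT7, a keratin of simple epithelia (−3.75), and 2 fell without TD31.

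The 21 skeletal muscle markers split the cultures. Their mean signal was 6.20 to 6.24 in the ESC arrays, 5.98 in TE31, 6.37 in TA31 and 6.61 in TC31, but 8.69 in TD31 and 8.93 in TB31. Limma called 0 of them, also at an unadjusted p under 0.05, and 1 was called lower without TE31. More muscle cells and more muscle RNA per cell cannot be told apart in bulk cultures, nor can fewer cells and less RNA per cell for any other list. With TB31 and TD31 left out, 767 genes were called higher and 842 lower.

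The 5 cultures stood at unequal distances from the ESC line, as counts that share the same ESC arrays. ESCs exceeded TA31 by at least 1 unit for 890 genes, TB31 for 938, TD31 for 1030, TC31 for 1109 and TE31 for 1428. They lay at least 1 unit below TA31 for 1331 genes, TD31 for 1365, TB31 for 1405, TC31 for 1419 and TE31 for 1442. The ESC mean was at least 1 unit above all 5 cultures for 606 genes and below all 5 for 821, and 573 and 741 of these were called. A limma F test on arrays, which measures only the spread between arrays of a source, found differences among the cultures for 4612 genes (32.6%), and 1622 of them (11.5% of all) had a range of at least 1 unit.

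Differences of 3 units or more that did not pass numbered 8 upward and 40 downward. Their median range over the cultures was 3.87 units, against 1.08 for called genes of that size. PCDH8, a protocadherin, read 9.92, 11.01 and 8.33 in ESCs and 8.59 in TA31, but 3.53 to 3.63 in the other 4 cultures, so that TA31 lay inside the ESC range. SPP1, the secreted phosphoprotein osteopontin, read 13.32, 13.09 and 13.40 in ESCs and ran from 6.54 in TE31 to 10.58 in TC31 (difference 4.65, limma adjusted p = 0.0506, and called without TC31, TE31 or C3106c). PROM1, the surface marker CD133, had a mean of 10.52 in ESCs and 4.78 to 7.89 in the cultures.

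CCN3 and H19 were the reverse, lowest in ESCs and next lowest in TE31. CCN3, a secreted matricellular protein, was at 4.88 in ESCs, 7.68 in TE31 and 11.46 to 13.58 elsewhere (difference −6.60, limma adjusted p = 0.0669). H19, an imprinted noncoding RNA, read 8.35, 8.48 and 8.04 in ESCs, 9.67 in TE31 and 13.09 to 13.58 in the other cultures (difference −4.32, limma adjusted p = 0.089). Without TE31 both CCN3 (−7.55) and H19 (−5.06) passed, as PCDH8 (6.15) and PROM1 (4.78) did without TA31.

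Some genes had a mean ESC signal between those of the cultures. DSP, the desmosome protein desmoplakin, read 10.71 in ESCs and 4.12 in TE31, 8.34 in TB31, 9.97 in TA31, 11.79 in TC31 and 12.84 in TD31. MYH3, embryonic myosin heavy chain, was under the viral level in ESCs (4.73), TA31 (4.44) and TE31 (4.51), which gives these no order, and was 7.25 in TC31, 11.80 in TD31 and 12.18 in TB31. VASH2, a vasohibin, was 7.16 in ESCs, 3.77 in TE31 and highest in TB31 (10.76) and TD31 (10.23). CRABP1, a retinoic acid binding protein, ran from 5.00 in TE31 to 11.93 in TD31 around an ESC level of 8.21, and ECRG4, a secreted peptide precursor, from 5.98 to 12.87 in the same cultures around 7.45. PLAC8 read 8.49 to 12.15 in 4 cultures, while its means in TD31 and in ESCs (5.98) were both under the viral level. The smallest limma adjusted p of these 6 genes was 0.394.

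Among called genes, the 6 with the widest ranges over cultures were LCN2, ENPEP, ITGB8, NFE2L3, FLG2 and BMPER. LCN2, a siderophore-binding lipocalin, ran from 8.10 in TE31 to 11.69 in TB31 (difference −5.21, and −0.68 on another probe set). The peptidase ENPEP differed by −5.12 (0.96 on another), the filaggrin relative FLG2 by −4.89 and the BMP-binding protein BMPER by −3.73. LCN2, ENPEP, FLG2 and BMPER all lost their call without TA31, and also without TB31 (LCN2, FLG2, BMPER), TC31 (LCN2, ENPEP, BMPER), TD31 (LCN2, ENPEP), TE31 (FLG2) or C3106b (BMPER).

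**Figure D3:**
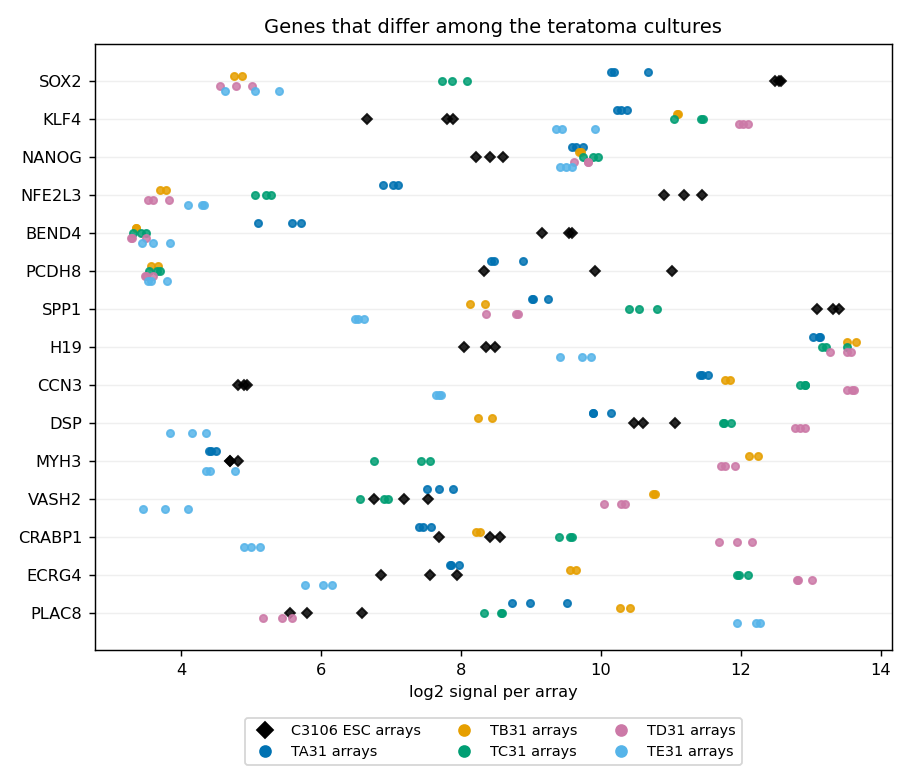
Log2 signal of every array for 15 genes, with black diamonds for C3106 ESCs and circles for the arrays of each teratoma culture. SOX2 and SPP1 are highest in ESCs, CCN3 and KLF4 are lowest there, TA31 overlaps the ESC arrays for PCDH8, and for DSP, CRABP1 and VASH2 the ESC level lies between those of the cultures.

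The title of the series names the counterparts of human chromosomes 16, 17, 19 and X, which in the rhesus macaque are 20, 16, 19 and X. Chromosomes were known for 13945 of the genes, and of these 5.88% were called higher and 6.73% lower in C3106 ESCs. The share called higher was 7.97% on X (47 of 590 genes), 5.22% on 16 (42 of 804) and 5.07% on 19 (45 of 887), and on chromosome 20 it was 32 of 593 genes. The share called lower was 6.44% on X, 3.2% on 20, 3.98% on 16 and 4.06% on 19, the last 3 being the smallest among autosomes. The largest shares called higher were on chromosomes 13 (8.11%) and 18 (8.05%). These shares are a description and were not tested. Of 4 genes assigned to Y limma called 0, and SRY, the testis-determining gene, read 6.86 in ESCs and 6.39 in teratoma fibroblasts, near the viral level on both sides (difference 0.46, limma adjusted p = 0.0173).

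**Figure D4:**
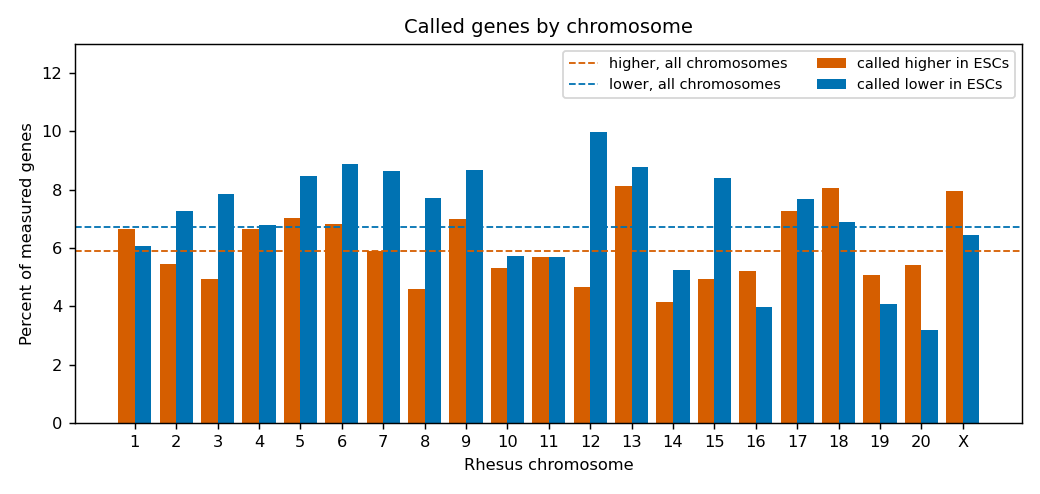
Percent of measured genes called higher (orange) or lower (blue) in C3106 ESCs on each rhesus chromosome, with dashed lines for all chromosomes together (5.88% and 6.73%). The blue bars of chromosomes 16, 19 and 20 are the shortest of the autosomes, and the orange bars of 13, 18 and X are the tallest.

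The genes named after their values were seen were SALL4, ETV4, ZSCAN10, ZFP42, CXADR, CDH3, CLDN7, RAB25, CDH1, ACVR2B, FST, TCF7L1, ERBB2, GBP2, MX1, ISG15, L1CAM, FBN1, FN1, CDK6, CDKN2C, VIM, CCN3, PCDH8, SPP1, H19, PROM1, PAX6 and SRY.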

How the data were processed

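RNA of each sample was copied, labelled with biotin and hybridised to 1 oligonucleotide array, per the labels' protocols. The authors deposited log2 signals for 52865 probe sets, which the submitters' processing notes link to GCOS and RMA without versions or settings. RMA usually brings arrays to a common distribution, so a shift shared by most genes would be hidden. Arrays give no read depth, and the number of cultures limits the precision.

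Genes were named from the platform's annotation, and each of 14132 symbols was read from its brightest probe set, by mean signal across the 39 arrays. Arrays were averaged per source without TB31c. The 6 averages entered limma (version 3.58.1, R 4.3.3; lmFit and eBayes, two-sided, 4 residual degrees of freedom), which was first tested on simulated data. The 30 gene lists held 653 measured genes. The text names the markers, the 12 largest rises and falls among called genes whose ESC arrays lay outside the culture range, up to 5 called members of each list, 5 pluripotency factors, and the 6 most variable genes over cultures, called or with the ESC level inside. Members and lists were chosen with earlier results of these data known. Alternatives left out arrays and cultures, added the other arrays, and changed the probe set, scaling, signal filter, fold limit or model. Promoter sequence was planned and not analysed here.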

Additional observations from a re-analysis of the deposited data

Results flagged for a closer look

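In the 5 teratoma cultures, 14 of 155 named genes had a culture whose mean stood far from the other 4, by a gap test that flags about 1 group in 20 by chance. Some of these genes were named for a wide range over these cultures or after their values were seen. The number flagged is therefore not set against that rate. TA31 stood above the others for CTSV (3.54 against 2.98 to 3.13), BEND4 (5.47 against 3.35 to 3.63), CLDN10 (4.51 against 3.45 to 3.70) and PCDH8 (8.59 against 3.53 to 3.63). TE31 stood below the others for EFEMP1 (12.48 against 12.99 to 13.19), ADAMTS2 (10.67 against 11.12 to 11.27), FN1 (13.03 against 13.35 to 13.40) and H19 (9.67 against 13.09 to 13.58), and above them for CCND3 (10.15 against at most 9.23), CD47 (12.18 against at most 11.16) and RAB25 (6.15 against 5.95 to 5.99 in TB31, TC31 and TD31 and a value just above that in TA31). TB31 was high for KLF2 (9.58 against 8.57 to 8.84), TD31 low for IGFBP3 (11.51 against 12.61 to 12.83) and TC31 high for HMGA1 (10.77 against 10.15 to 10.28). TE31 accounts for 7 of these, and PCDH8 and H19 show the widest gaps. All culture means of CTSV, BEND4, CLDN10 and RAB25 were under the viral level of 6.71, so their gaps are limited by background.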

How the results depend on the processing

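The counts of genes called higher and lower stayed within 1.5 times of 827 and 955 except under 3 changes. On the next brightest probe set, which 6375 genes have, they were 392 and 416. With no fold limit they were 2036 and 1571, and with a limit of 2 units 210 and 416. Leaving out a culture gave 726 to 822 higher and 848 to 1007 lower, and leaving out an ESC array 800 to 906 and 908 to 1050. Of the calls that could be tested again, 52.1% of 951 were kept on the next brightest probe set, and 80.6% to 100% in the other fits that kept the limit of 1 unit. Array letters do not pair the samples: deviations of arrays with the same letter correlated at a median of 0.017 (−0.505 to 0.566), those of other letters at −0.006. With the letter as a replicate block on 17 arrays, 988 and 1429 genes were called, and without it 1010 and 1366.

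Another probe set gave a difference of the other sign for COL15A1 (0.31), COL5A2 (0.48), ITGB8 (0.05), ID3 (0.11), GPI (0.14), GFAP (−0.55), ENPEP (0.96) and GBP2 (−0.26). For CDKN2A it gave 0.00. All of these differences were under 1 unit. Limma's adjusted p on that probe set was under 0.05 only for COL5A2 (0.029) and ENPEP (0.00754). The cause of these disagreements between probe sets was not tested. Some differences that were not called also changed sign. CRABP1 gave 0.01 with all 39 arrays or with TB31c kept, 0.05 with the replicate block and 0.88 without TB31 and TD31, where VASH2 gave 1.07. Leaving out single cultures gave −1.08 to 0.66 for CRABP1, −1.71 to 0.03 for VASH2 and −0.02 to 2.16 for DSP. Leaving out single ESC arrays gave up to 0.05 for CRABP1 and −0.18 to 0.03 for CDH1. Signal over background limits the differences of the 302 and 303 called genes that were under the viral level on their low side.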
